A study of Mus musculus with 6 samples.

Results

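Dual-specificity phosphatase genes were followed in mouse T cells kept with disulfiram (DSF) or with its solvent. The 10 genes were Dusp1, Dusp2, Dusp4, Dusp5, Dusp6, Dusp7, Dusp10, Dusp11, Dusp16 and Dusp18, out of 55536 genes in the deposited table. They were taken by gene name, and the set was chosen because Dusp18 moved in the opposite direction to Dusp2, Dusp4 and Dusp5 between DSF and DMSO in these same libraries. Their levels and fold changes in that contrast are therefore given as a description, without a test. Primary OT-I T cells, wild type and taken from mouse lymph nodes, were treated for 2 h with DSF in 3 libraries or with dimethyl sulfoxide (DMSO) in 3 libraries. OT-I cells carry a transgenic receptor for an ovalbumin peptide, and all were cultured in RPMI medium with serum and 2-mercaptoethanol. DSF is a thiuram disulfide drug that blocks aldehyde dehydrogenases. The labels call the libraries biological replicates. They do not give the dose, any stimulation of the cells, or which animals or cultures the replicates came from. The p-values below therefore set the difference between the groups against the spread between these libraries. They may not carry over to other animals or cultures.

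Dual-specificity phosphatases remove phosphate from both tyrosine and serine or threonine residues. The MAP kinase phosphatases among them switch off ERK, JNK and p38, the kinases that carry signals from the T cell receptor and from stress to the nucleus. Several are themselves induced by those kinases and so form a negative feedback loop. The atypical members lack the domain that docks MAP kinases, and their substrates are more varied.

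The libraries held 18082264 to 21893720 estimated counts each, and all 10 genes passed the filter on low counts. CD8 T cell markers (Cd3d, Cd3e, Cd3g, Cd8a, Cd8b1, Trac, Lck and Cd2) summed to 2459 to 2489 TPM (a transcript level scaled to length and library size) with DMSO and 2366 to 2409 with DSF, while Cd4 averaged 0.53 and 0.733 TPM. The 5 CD4 and regulatory T cell markers, mostly Ctla4, summed to 293 to 316 and 301 to 322 TPM, and Zbtb7b and Cxcr5 were higher with DSF by edgeR's quasi-likelihood test. Among CD8 T cell markers, 3 of 8 were lower with DSF and Cd2 was higher by that test, beside 11.3% lower and 11.6% higher among all genes. The summed levels of 6 B cell markers ran from 156 to 170.2 TPM with DMSO and from 156 to 161 TPM with DSF. The 9 myeloid and dendritic cell markers summed to 21.4 to 22.6 and 20.1 to 23.7 TPM, the 4 natural killer cell markers to 19.5 to 21.1 and 17.2 to 17.8 TPM, and the 6 stromal, endothelial and erythroid markers to 19.6 to 22.1 and 17.3 to 20 TPM. Ighm, Xcr1 and Eomes, 1 marker in each of the first 3 of these lists, were lower with DSF, and Siglech was at 0 in all libraries. The part of other cells in the values below was not tested, and in bulk RNA fewer cells with a transcript and less of it per cell cannot be told apart.

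With DSF, Dusp18 stood about 25 times higher than with DMSO, while Dusp5, Dusp2 and Dusp4, the most abundant MAP kinase phosphatases of the set, stood lower. Dusp1 stood higher, by a log2 fold change of 0.43 from counts, beside -0.39 for Dusp4. Dusp11, Dusp16 and Dusp6 differed less, by log2 fold changes of 0.21, 0.17 and -0.15 from counts. Dusp7 and Dusp10 differed little between the groups. By the edgeR threshold used across all genes (Benjamini-Hochberg adjusted p under 0.05), 3 of the 10 were higher and 3 lower, against 11.6% of all 14318 tested genes higher and 11.3% lower. Since the set was picked on this contrast, nothing is read from that count. In 8 of the 10 the CPM values (counts scaled to library size) of the DMSO and DSF libraries were fully separate, as they were in 35.4% of all genes.

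**Figure D1:**
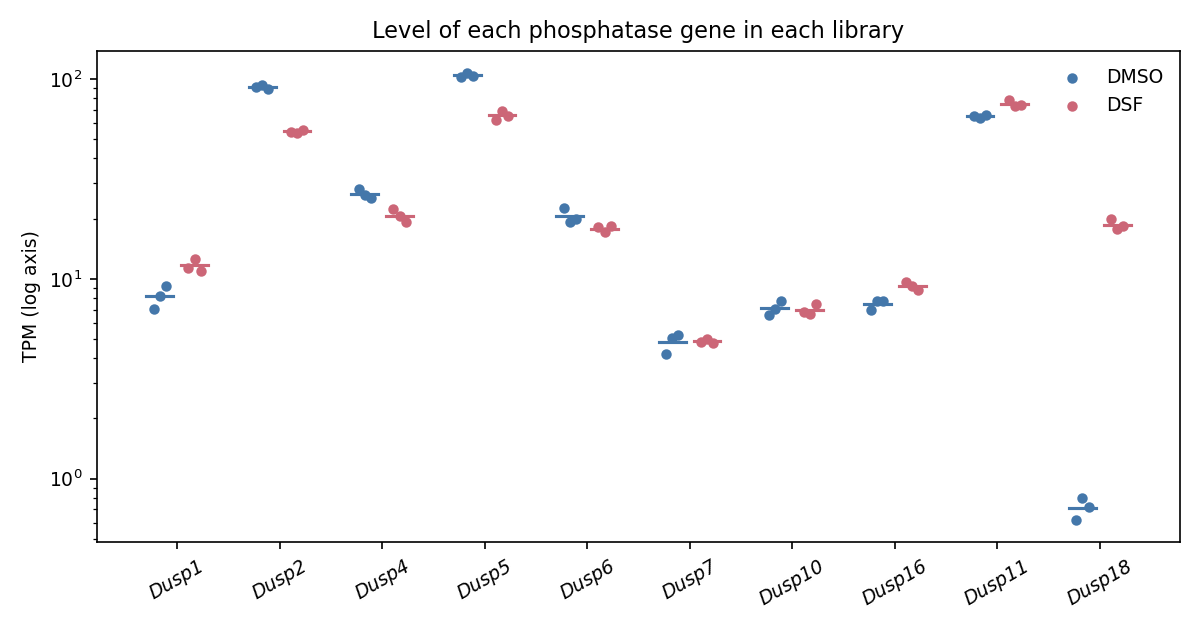
TPM of each of the 10 phosphatase genes (log axis) in the 3 DMSO and 3 DSF libraries. Points are libraries and short lines are group means. Dusp18 goes from under 1 TPM in all DMSO libraries to 17.72 to 19.84 TPM with DSF, and Dusp2, Dusp4 and Dusp5 lie lower with DSF.

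Dusp18 encodes a small atypical phosphatase reported in mitochondria. Its level was 0.62, 0.8 and 0.72 TPM in the DMSO libraries and 19.84, 17.72 and 18.37 TPM in the DSF libraries. Every DSF library stood far above every DMSO library. The counts behind these values were 42 to 63 per library with DMSO and 1217 to 1352 with DSF, so the DMSO level carries the larger counting error. The log2 fold change from counts was 4.66 ± 0.09 (SE, n = 3 per group), a 25.3-fold difference and rank 2 among the 10210 genes that averaged 5 CPM or more. Dusp18 reached that average through its DSF libraries (2.55 CPM with DMSO and 65.3 with DSF). It was chosen on this contrast, so the rank is a description only. The gene lies on chromosome 11 at 3895240 to 3901296 of GRCm38, on the plus strand, and no annotated exon of another gene overlaps its exons.

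The nuclear, inducible MAP kinase phosphatases are Dusp1, Dusp2, Dusp4 and Dusp5. Dusp5, a nuclear phosphatase that acts on ERK, was the most abundant of the 10 genes with DMSO. It stood at 102.26, 107.03 and 103.84 TPM with DMSO and at 62.46, 69.53 and 65.28 TPM with DSF, with no overlap between the groups. The log2 fold change was -0.69 ± 0.04 (SE). Dusp2, also called PAC-1 and first found in activated T cells, stood at 91.35, 93.08 and 88.79 TPM with DMSO and at 54.58, 53.96 and 55.75 TPM with DSF. Its groups did not overlap either, and its log2 fold change of -0.77 ± 0.05 was the lowest of the 10.

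Dusp4, a nuclear phosphatase of ERK and JNK, differed less. It stood at 28.07, 26.23 and 25.42 TPM with DMSO and at 22.3, 20.51 and 19.33 TPM with DSF, a log2 fold change of -0.39 ± 0.06. The lowest DMSO library was still above the highest DSF library. Dusp1, the stress-induced phosphatase that acts mainly on p38 and JNK, went the other way from its nuclear relatives. Its levels were 7.06, 8.2 and 9.2 TPM with DMSO and 11.38, 12.63 and 10.99 TPM with DSF, without overlap, and its log2 fold change was 0.43 ± 0.09. Summed, the 4 nuclear genes held 230.2 ± 3.85 TPM with DMSO and 153 ± 3.25 TPM with DSF (mean ± SD, n = 3), a ratio of 0.664.

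The cytoplasmic ERK phosphatases Dusp6 and Dusp7 differed less between the groups. Dusp6, a feedback inhibitor of ERK, stood at 22.68, 19.21 and 19.86 TPM with DMSO and at 18.12, 17.05 and 18.37 TPM with DSF. The groups did not overlap, but the gap between them was smaller than the spread of the DMSO libraries, and the log2 fold change was -0.15 ± 0.06. Dusp7 stood at 4.2, 5.07 and 5.24 TPM and at 4.81, 4.97 and 4.79 TPM, so the DSF libraries lay within the DMSO range, with a log2 fold change of 0.02 ± 0.1.

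Dusp10 and Dusp16 encode phosphatases that prefer JNK and p38. Dusp10 stood at 6.59, 7.03 and 7.74 TPM with DMSO and at 6.82, 6.7 and 7.49 TPM with DSF, and the groups overlapped (log2 fold change -0.05 ± 0.09). Dusp16 stood at 6.99, 7.73 and 7.73 TPM with DMSO and at 9.66, 9.16 and 8.79 TPM with DSF, all DSF libraries above the DMSO libraries. Its difference depended on the scale, with a log2 fold change of 0.17 ± 0.07 from counts and of 0.30 from log2(TPM + 0.1).

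Dusp11 encodes an atypical family member that removes phosphates from the 5′ end of RNA. It stood at 65.32, 64.1 and 65.83 TPM with DMSO and at 78.55, 73.1 and 74.36 TPM with DSF, without overlap, and its log2 fold change was 0.21 ± 0.03. This was a small difference seen precisely, since the gene had 4528 to 5740 counts per library.

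TPM is scaled to transcript length, so levels can be set beside each other. With DMSO the order of the mean levels was Dusp5, Dusp2, Dusp11, Dusp4, Dusp6, Dusp1, Dusp16, Dusp10, Dusp7 and Dusp18. The ranges over the 3 libraries overlapped between Dusp1 and Dusp16 and between Dusp16 and Dusp10, and between no other neighbours in that order. With DSF the order was Dusp11, Dusp5, Dusp2, Dusp4, Dusp18, Dusp6, Dusp1, Dusp16, Dusp10 and Dusp7. Here Dusp18 overlapped with both Dusp4 above it and Dusp6 below it. Dusp18 thus moved from the lowest place of the 10 to the fifth, and Dusp11 from the third to the first.

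The summed level of the 10 genes was 336 ± 2.18 TPM with DMSO and 286 ± 2.53 TPM with DSF (mean ± SD, n = 3). Dusp2, Dusp4 and Dusp5 together made up 66.1% of that sum with DMSO and 49.4% with DSF. Dusp18 made up 0.185, 0.236 and 0.215% in the DMSO libraries and 6.88, 6.21 and 6.48% in the DSF libraries. The share of Dusp11 was 19.4 ± 0.389% with DMSO and 26.4 ± 0.811% with DSF. The 8 MAP kinase phosphatases alone summed to 270.2 ± 3.01 and 192 ± 2.36 TPM, a ratio of 0.71. These sums count transcripts and say nothing of phosphatase protein or activity.

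**Figure D2:**
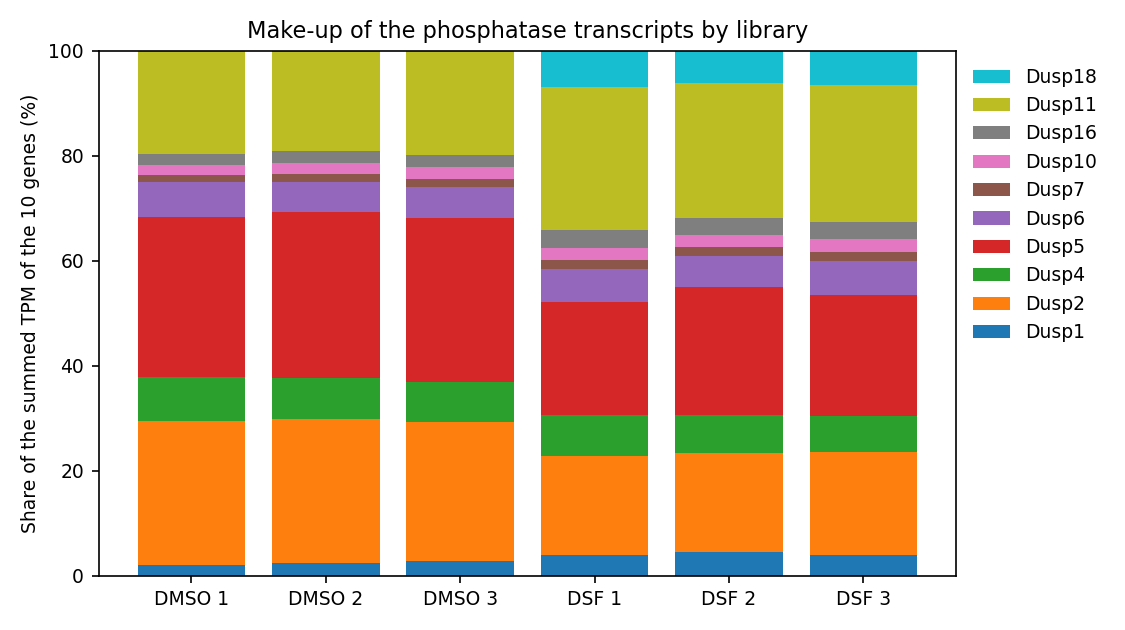
Stacked bars give the share of each gene in the summed TPM of the 10 phosphatase genes, in percent, for each of the 6 libraries. The Dusp2 and Dusp5 segments are shorter in the DSF libraries, and Dusp18, too thin to see with DMSO, holds 6.21 to 6.88%.

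The ratio of counts to TPM, scaled on 499 genes with 1 annotated transcript, gives a rough mean length of the transcripts assigned to a gene. It is approximate and can come out above the annotated length. For Dusp18 it was 4756 to 4795 bases with DMSO and 4706 to 4771 bases with DSF, close to the deposited gene length of 4632 bases. For Dusp16 it was 5053, 4656 and 4838 bases with DMSO and 4719, 4292 and 4528 bases with DSF, which overlap. Dusp5 (2415 to 2420 bases) and Dusp4 (2708 to 2713 bases), each with 1 annotated transcript, stayed constant, so their TPM and counts carry the same information. Exons of Dusp5 overlap 547 bases of AC137853.2 on the opposite strand, a gene with a mean of 5.4 counts. Exons of Dusp1 share 11 bases with Ergic1 and those of Dusp11 share 45 bases with Gm19265, both on the opposite strand. The labels do not say whether the counts are strand-specific, so reads of such overlaps cannot be told apart.

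The start regions of the genes were read from RefSeq (build GRCm38.p6), 250 bases before to 50 after the annotated start. The table held a window for 9 of the 10 genes, all but Dusp4. Motifs were searched on both strands, with the windows and the results already in view: AP-1 (TGANTCA), CRE (TGACGTCA), E-box (CACGTG), GC box (GGGCGG), ETS (CCGGAAG), the metal response element core (TGCACNC or TGCGCNC), the CArG box of serum response factor (CC, then 6 bases that are A or T, then GG), and the X-box of RFX factors (GTTGCC, any 2 bases, GG, any 2 bases, AC). Positions count from 0 at the start, with negative values before it. Capitals in the windows mark the matches. No matches overlap in the windows shown, although the CRE of Dusp1 adjoins a GC box. The windows of Dusp18, which stood higher with DSF, of Dusp5 and Dusp2, which stood lower, and of Dusp1, the nuclear gene that stood higher, are shown so that they can be compared.
Dusp18, chr11:3894990-3895289, plus strand: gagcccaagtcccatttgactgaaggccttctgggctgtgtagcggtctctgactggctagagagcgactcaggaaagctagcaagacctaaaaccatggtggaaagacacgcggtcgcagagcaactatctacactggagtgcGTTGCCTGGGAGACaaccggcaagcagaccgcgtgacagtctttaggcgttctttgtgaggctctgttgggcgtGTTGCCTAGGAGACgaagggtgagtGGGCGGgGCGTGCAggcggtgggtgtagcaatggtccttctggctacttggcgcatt
Dusp5, chr19:53528895-53529194, plus strand: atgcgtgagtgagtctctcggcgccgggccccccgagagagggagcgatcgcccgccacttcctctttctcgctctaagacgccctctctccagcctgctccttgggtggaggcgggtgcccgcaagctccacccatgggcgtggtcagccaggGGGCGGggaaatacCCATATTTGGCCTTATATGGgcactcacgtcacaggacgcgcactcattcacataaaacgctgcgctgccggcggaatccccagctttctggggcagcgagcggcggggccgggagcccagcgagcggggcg
Dusp2, chr2:127335909-127336208, plus strand: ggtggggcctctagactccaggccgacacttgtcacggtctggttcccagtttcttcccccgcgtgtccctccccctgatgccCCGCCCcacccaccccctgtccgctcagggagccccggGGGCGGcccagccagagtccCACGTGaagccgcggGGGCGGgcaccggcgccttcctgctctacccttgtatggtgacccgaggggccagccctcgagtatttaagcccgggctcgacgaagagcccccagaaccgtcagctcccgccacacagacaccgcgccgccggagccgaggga
Dusp1, chr17:26508423-26508722, minus strand: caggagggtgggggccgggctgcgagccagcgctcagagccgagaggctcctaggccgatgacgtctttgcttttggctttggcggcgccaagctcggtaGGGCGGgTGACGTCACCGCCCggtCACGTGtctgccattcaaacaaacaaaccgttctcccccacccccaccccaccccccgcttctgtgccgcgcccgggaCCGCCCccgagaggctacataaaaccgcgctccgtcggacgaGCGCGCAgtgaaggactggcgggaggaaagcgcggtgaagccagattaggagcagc

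The Dusp18 window held 2 X-boxes, GTTGCCTGGGAGAC at -106 and GTTGCCTAGGAGAC at -32. An X-box was present in 240 of all 32851 windows (0.731%), and 2 or more in 6 windows (0.0183%). Among the other 8 genes with a window, Dusp6 held 1 X-box match at -81. The Dusp18 window also held a GC box at -7 and a metal response element core at 0, motifs present in 35.7% and 25.7% of all windows. X-boxes are known from promoters of genes for cilia. A match is a stretch of letters and not evidence that a factor binds there.

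The Dusp5 window held 2 adjoining CArG boxes, CCATATTTGG at -82 and CCTTATATGG at -72, against 1.63% of all windows with any. None of the other 8 windows held one. The Dusp2 window held 3 GC boxes and an E-box at -109, and E-boxes occurred in 7.15% of all windows. The Dusp1 window held the CRE at -143, a motif in 1.79% of all windows, and an E-box at -126. GC boxes were found in 7 of the 9 windows and metal response element cores in 3. AP-1 and ETS letters were in none of the 9, against 7.81% and 8.86% of all windows. At such shares 9 windows are too few to read anything from an absence. G and C made up 56.7 to 78.7% of the bases in the 9 windows, against a median of 52.7% over all windows. Its part in the GC box matches was not tested.

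Genes other than the 10 whose window held an X-box could be set beside all genes with a window. Of 110 such genes tested, 33 were higher with DSF and 1 was lower, with 76 not called by edgeR's quasi-likelihood test. Of 10123 tested genes with any window, 1271 (12.6%) were higher and 1223 lower. The median log2 fold change was 0.10 over the X-box genes and 0.00 over all tested genes with a window. The motif was chosen after the Dusp18 window had been seen, and no test was made on this list.

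On the chromosome, the nearest tested gene to the right of Dusp18 was Slc35e4, 5.7 kb away on the opposite strand, so that the ends of both genes face each other. Slc35e4, a solute carrier family gene, rose from 1.36, 1.31 and 1.36 TPM to 3.77, 3.49 and 4.04 TPM, without overlap between the groups. Its log2 fold change was 1.46 ± 0.14 (edgeR's adjusted p = 1.15e-09). Reads running past the end of Dusp18 would fall towards it, and their part in this value was not tested. On the other side of Dusp18, Morc2a, 204.8 kb away, stood at 17.8 ± 1.02 and 18.6 ± 0.3 TPM and did not pass.

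Over all 10 genes, 23 neighbouring or overlapping genes were tested. Of these 3 were higher and 1 lower by edgeR's quasi-likelihood test, against 22.9% called among all genes. Crebl2, a gene for a bZIP protein 37.5 kb from Dusp16, rose from 8.06 ± 0.597 to 14.8 ± 1.6 TPM. Tnks, the tankyrase gene 6.6 kb from Dusp4, rose by a log2 fold change of 0.18 ± 0.05, opposite in sign to Dusp4. Stard7, 37.2 kb from Dusp2, fell by 0.18 on the log2 scale, which no longer passed once DSF library 1 was left out (edgeR's adjusted p = 0.0607). With limma on log2(TPM + 1) neither Tnks nor Stard7 passed (adjusted p = 0.143 and 0.156). Both tested neighbours of Dusp5, Mirt1 and Nutf2-ps1, did not pass (log2 fold changes of -0.08 ± 0.06 and -0.02 ± 0.05).

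The family holds other genes, and those were not used to choose the set. Of 22 further dual-specificity phosphatase genes in the deposited data, 16 were tested, of which 4 were higher with DSF and 0 lower by edgeR's quasi-likelihood test, a share of 25%, near the 22.9% of all genes. Dusp14, a small atypical phosphatase known to restrain T cell receptor signalling, rose from 5.33, 4.98 and 6.1 TPM to 9.84, 10.22 and 10.02 TPM. All DSF libraries lay above all DMSO libraries, at a log2 fold change of 0.85 ± 0.13 (edgeR's adjusted p = 5.92e-06).

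Ssh2 and Ssh1 encode slingshot phosphatases, which act on the actin regulator cofilin. Ssh2 rose from 27.07, 23.95 and 26.98 TPM to 39.15, 38.1 and 37.89 TPM (log2 fold change 0.51 ± 0.04, edgeR's adjusted p = 8.89e-12). Ssh1 rose from 9.18 ± 0.756 to 11.5 ± 0.719 TPM (edgeR's adjusted p = 0.00272), but did not pass with limma on log2(TPM + 1) (adjusted p = 0.0773). Dusp3 passed with 0.88, 1.03 and 1.32 against 3.9, 1.79 and 0.9 TPM, yet its groups overlapped and DSF library 1 stood apart. Its call (edgeR's adjusted p = 0.0339) ended without any 1 of 5 libraries, all but DSF library 3 (adjusted p from 0.0815 to 0.312), and with DESeq2 (adjusted p = 0.12).

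Ssh3, Ssh2 and Dusp22 had the highest mean levels of these further genes. Dusp22, whose product acts on the kinase LCK, stood at 24.5 ± 1.46 and 25.2 ± 1.01 TPM and did not pass, nor did Ssh3 at 40.7 ± 6.06 and 38.2 ± 3 TPM. None of the 16 differed as far as Dusp18, and the next largest log2 fold change among them was 0.86 ± 0.33 for Dusp23, which did not pass.

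**Figure D3:**
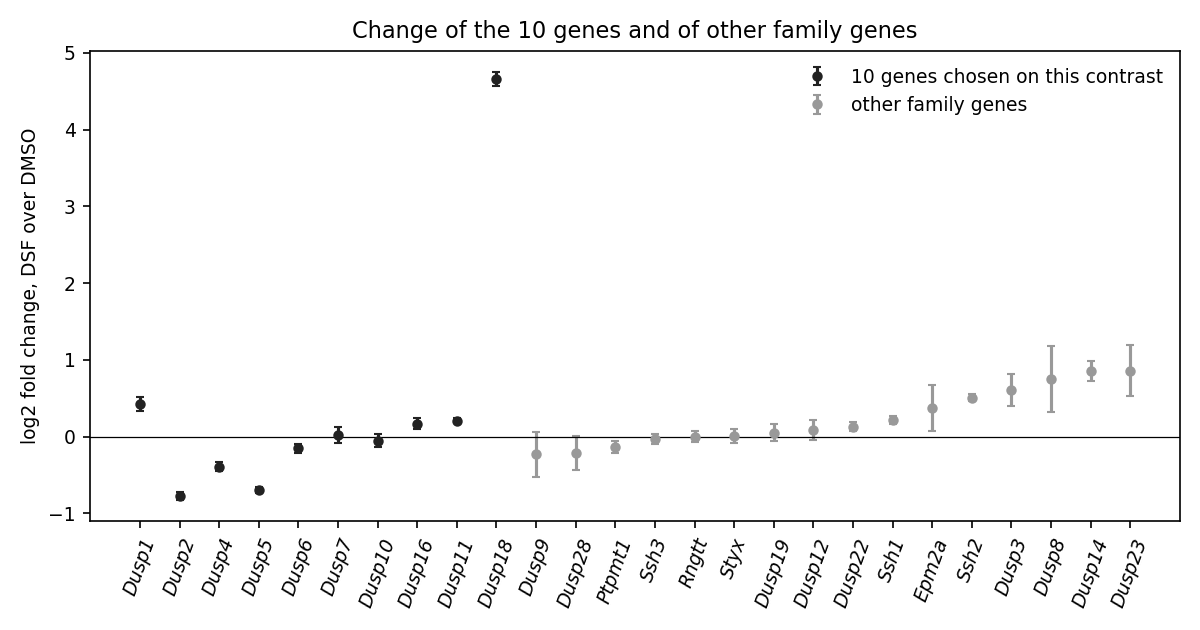
log2 fold change of DSF over DMSO from edgeR (points) with its approximate standard error (bars) for the 10 genes and for 16 other tested genes of the family. Dusp18 stands at 4.66, and the other genes lie between -0.77 and 0.86.

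The kinases these phosphatases act on, and the genes above and below them, were read from 7 lists of 122 genes. Of 112 tested, 33 were higher and 19 lower with DSF by edgeR's quasi-likelihood test, a share of 46.4% beside the 22.9% of all genes, at a median log2 fold change of 0.04. The lists were drawn up with earlier results of these libraries known, so the share is a description.

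In the Ras-ERK module 7 of 18 genes were higher and 2 lower by edgeR. Shoc2, which helps RAF activation, rose from 27 ± 2.24 to 31 ± 0.812 TPM, while the scaffold gene Ksr1 fell from 11 ± 1.48 to 9.23 ± 0.937 TPM. These differences were small, with log2 fold changes of 0.26 and -0.26, and for Ksr1 the TPM values of the groups overlapped while the CPM values did not. Neither passed with limma on log2(TPM + 1) (adjusted p = 0.128 and 0.278). In the p38 module 8 of 18 were higher and 1 lower. Mapk14, the gene for p38 alpha, rose from 62.18, 67.71 and 70.28 TPM to 98.74, 104.94 and 110.68 TPM, a log2 fold change of 0.58 ± 0.04 (edgeR's adjusted p = 3.65e-13). Taok1, a kinase upstream of p38, rose from 14.5 ± 1.04 to 23.3 ± 0.626 TPM, and Map3k5, the gene for ASK1, rose from 10.1 ± 0.856 to 12.2 ± 0.771 TPM, which did not pass with limma on log2(TPM + 1) (adjusted p = 0.112).

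In the JNK module only Map3k1 passed, 1 of 13, and rose by a log2 fold change of 0.44 ± 0.05. With limma on log2(TPM + 1) its log2 fold change was 0.22 and it did not pass (adjusted p = 0.16). Of 6 tested genes for ERK5 and the atypical MAP kinases 3 were higher. They were Map3k2, from 11.8 ± 1.13 to 17.4 ± 1 TPM, Mapk7, the gene for ERK5, from 12.8 ± 2.13 to 16.4 ± 0.61 TPM, and Map3k3, from 31.9 ± 3.82 to 37.3 ± 0.495 TPM. With limma on log2(TPM + 1) Mapk7 and Map3k3 did not pass (adjusted p = 0.0982 and 0.156). Of 10 kinases downstream of MAP kinases 2 were higher and 2 lower. Rps6ka4 and Rps6ka5, which encode the nuclear kinases MSK2 and MSK1, rose by log2 fold changes of 0.25 ± 0.06 and 0.38 ± 0.10, and neither passed with limma on log2(TPM + 1) (adjusted p = 0.169 and 0.176). Rps6ka3 was lower (log2 fold change -0.13 ± 0.04), with TPM values that overlapped between the groups, and no longer passed when DMSO library 3, DSF library 2 or DSF library 3 was left out (edgeR's adjusted p = 0.0704, 0.0937 and 0.0643) or with limma on log2(TPM + 1) (adjusted p = 0.549).

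Other inhibitors of the pathway went both ways, with 4 of 23 higher (Spred1, Spred2, Rasa2 and Ppm1a) and 8 lower. The 3 with the smallest p, described next, were all lower. Ptpn7, a tyrosine phosphatase of ERK and p38 in blood cells, fell from 122.81, 131.62 and 137.08 TPM to 98.62, 97.61 and 101.95 TPM. The groups did not overlap, and the log2 fold change was -0.39 ± 0.03 (edgeR's adjusted p = 2.64e-10). Rasal3, a Ras GTPase-activating protein gene of T cells, fell from 135 ± 3.91 to 109 ± 7.36 TPM. Dok2, an adaptor that restrains receptor signalling, fell from 40.5 ± 1.6 to 34.1 ± 9.09 TPM, where the TPM values of the groups overlapped and limma on log2(TPM + 1) gave an adjusted p = 0.378.

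Transcripts known to respond to ERK were split, with 8 of 24 higher and 6 lower. Fosb rose from 6.74, 7.24 and 6.43 TPM to 25.72, 21.39 and 22.57 TPM, and Fos from 7.82 ± 0.789 to 16.7 ± 0.919 TPM. Myc fell from 72.2 ± 3.4 to 44.9 ± 3.16 TPM, a log2 fold change of -0.73 ± 0.05. Egr1 rose by a log2 fold change of 0.25 ± 0.05, and Egr3 fell from 16.4 ± 1.25 to 10.5 ± 0.58 TPM.

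**Figure D4:**
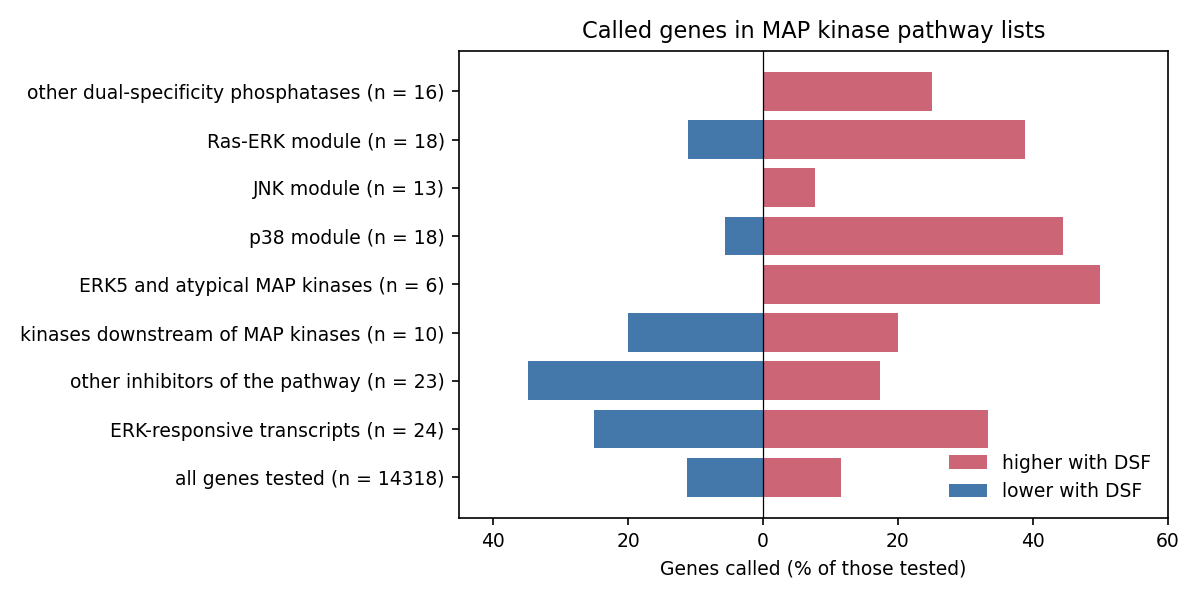
Share of tested genes called higher (right) or lower (left) with DSF by edgeR at an adjusted p under 0.05, in percent of the genes tested, for the lists of family and pathway genes and for all genes. The inhibitor list has more genes lower than higher (8 and 4 of 23), and the p38 list more higher than lower (8 and 1 of 18).

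The genes most like a phosphatase across the 6 libraries were found by the Euclidean distance between log2 CPM values centred on each gene's mean, among 9611 genes. With 3 libraries in each group this distance follows mostly the difference between the groups. The 5 nearest to Dusp5 were Myc, Polr1b, Egr3, Gfi1 and Apol7e, at distances of 0.08 to 0.12. Those nearest to Dusp2 were Gimap1os, F2rl2, Tgtp1, Samd3 and Ptger2, at 0.12 to 0.17, and those nearest to Dusp4 were Serpinb9, Tmem163, Nifk, Parp9 and Rrp15, at 0.09 to 0.10. Dusp18 had no neighbour as close. Among its nearest were Tub, Tppp3, Lrrc23 and Ralgds, at 0.69, 0.83, 0.92 and 1.13. The genes compared averaged at least 5 CPM over the 6 libraries. With DMSO, Tub, Tppp3 and Lrrc23 averaged 0.609, 0.751 and 0.599 CPM, so they entered only through their DSF values. Dusp18 was itself chosen on this contrast, so nothing is read from these neighbours. Tub stood at 0.393 ± 0.0493 TPM with DMSO and 4.7 ± 0.529 TPM with DSF.

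The authors' deposited table of comparisons names a further group, DC, which the labels do not explain and whose libraries were not analysed here. DO was taken to be DMSO and DF to be DSF. In the authors' deposited table, Dusp18 had a log2 fold change of 4.67 for DF against DO, of 0.05 for DC against DO and of -4.63 for DC against DF. By these values it stood in DC at about its level in DO. Each comparison shares a group with each of the others, so their values are not independent.

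For DC against DO, 93 of 26951 tested genes (0.345%) had an adjusted p under 0.05 in the authors' deposited table, a threshold applied here and not the table's own mark of significance. Among the 10, Dusp2 and Dusp5 were under it in the authors' deposited table, with log2 fold changes of -0.26 (adjusted p = 0.000259 in the authors' deposited table) and -0.16 (adjusted p = 0.0104). The authors' deposited table itself marks neither as significant in any of the 3 comparisons, and among the 10 it marks Dusp18 alone, for DF against DO and for DC against DF. In the authors' deposited table both were also lower for DF against DO, at -0.77 and -0.69, and higher for DC against DF, at 0.50 and 0.53. The other 8 genes had log2 fold changes of -0.19 to 0.07 for DC against DO, each with an adjusted p of 1 in the authors' deposited table. Dusp14, outside the 10, had 0.85 for DF against DO, 0.22 for DC against DO and -0.63 for DC against DF in the authors' deposited table.

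**Figure D5:**
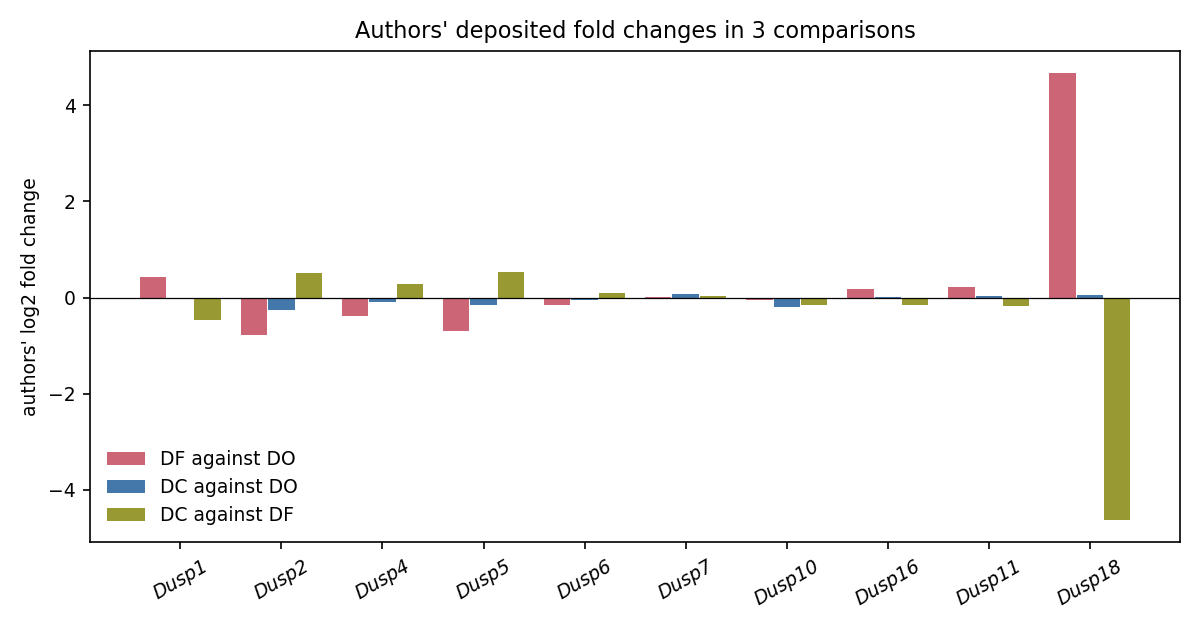
The authors' deposited log2 fold changes of the 10 phosphatase genes in 3 comparisons of the groups coded DO, DF and DC, as bars from 0, with no error since the table gives none. Dusp18 has long bars wherever DF takes part (4.67 and -4.63) and almost none for DC against DO (0.05).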

How the data were processed

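RNA of OT-I T cells, 3 samples with DMSO and 3 with DSF, was sequenced, per the labels' protocols, after library preparation from total RNA with a SMARTER kit. Per the submitters' processing notes the genome was GRCm38 (mm10); the aligner, the counter and the strand setting were not given in the labels. Estimated counts per gene, not normalized, were made and deposited by the authors with no counter named, per the file headers. The authors also deposited TPM per library and fold changes (ratios), log2 fold changes and p-values of their own comparisons in files titled as DESeq2 output. The columns carry the letters A and B. In all 55536 genes, averaging the A columns gave the TPM headed DO within 0.0001 TPM, and averaging the B columns that headed DF. DO was taken to be DMSO, DF to be DSF and the numbers to be replicate numbers, which no label states. Of the columns with values per library 0 were left unused.

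Estimated counts, whose totals were 18082264 to 21893720 per library, were rounded to whole numbers, since the design had allowed for either kind. filterByExpr left 14318 genes, TMM factors were 0.9952 to 1.0053, and edgeR 4.0.16 in R 4.3.3 fitted a robust quasi-likelihood model with the group as its term, with Benjamini-Hochberg adjustment over all tested genes and calls at 0.05. Standard errors are approximate, taken as the size of the log2 fold change divided by the root of F. The pipeline was tested on simulated data. Between replicates the chi-square against counting error was 2.16 to 4.01 times its degrees of freedom, so no pair agreed within it. Reads carry no stated molecular identifiers, so counting error is a lower limit.

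The 10 genes, the gene lists and the motifs were chosen with earlier results of these data known. Named outside the 10 were further family genes that were called or among the 3 highest in TPM, the 3 genes with the smallest p of each pathway list where called, called neighbours, and the 5 nearest genes to Dusp2, Dusp4, Dusp5 and Dusp18 with at least 5 CPM and no predicted-model symbol. Some genes that this rule names are not reported here. Other genes named, such as Egr1, Egr3, Morc2a, Mirt1, Nutf2-ps1 and Dusp23, were chosen after their values were seen. GENCODE M21 gave positions and held all 55536 identifiers. Alternatives were DESeq2 1.42.0, limma 3.58.1 on log2(TPM + 1), upper-quartile scaling, no filter, a replicate block and leaving out each library.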

Additional observations from a re-analysis of the deposited data

How the results depend on the processing

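DESeq2, upper-quartile scaling, no filter on low counts and leaving out any 1 library each kept the counts of called genes within 1.5 times the main values, for all genes, the further family genes, the pathway genes, the neighbours and the X-box genes. With limma on log2(TPM + 1) the calls fell to 1383 in place of 3276 for all genes (837 higher and 546 lower, against 1655 and 1621), to 2 in place of 4 for the further family genes, to 18 in place of 52 for the pathway genes, to 2 in place of 4 for the neighbours and to 17 in place of 34 for the X-box genes, and the cause was not tested. Leaving out each library in turn gave 2565 to 2972 calls over all genes, 3 to 4 for the further family genes, 40 to 51 for the pathway, 4 to 5 for the neighbours and 29 to 37 for the X-box genes. The X-box alternatives were chosen after seeing the data. With the replicate block the calls were 3829, 4, 59, 4 and 40 in the same order. Same-numbered libraries correlated at 0.045, 0.035 and 0.055 in their deviations from the group means. These were under 0.1, the limit chosen here for treating the numbers as pairs. Each library still correlated best with its own number, so the numbers may mark pairs. Of 120 log2 fold changes of the 10 genes under alternatives, 116 moved by less than the spread between replicates; the others were Dusp16 (0.27 and 0.30) and Dusp18 (3.52 and 4.53) on log2(TPM + 1) and log2(TPM + 0.1), against 0.17 and 4.66. A pseudocount lowers the fold of a gene as low as Dusp18 with DMSO. TPM also divides counts by length, which for Dusp16 was estimated at 4656 to 5053 bases with DMSO and 4292 to 4719 with DSF. The cause of the higher values of Dusp16 on both scales was not tested. Of 297 such values of the named further genes, 272 kept both direction and call, and none of the 297 changed direction. Depth limits the DMSO level of Dusp18, at 42 to 63 counts.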
